A study of Lens culinaris with 20 samples.

Results

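Flower buds and mature leaves of lentil (Lens culinaris), a grain legume, were compared for their mature miRNAs. The comparison rests on 6 small RNA libraries, 3 labelled flower buds and 3 labelled mature leaves, out of 20 libraries from 7 tissues (roots, shoots, stem, mature leaves, flowers, flower buds and young pods) that were profiled to chart miRNA expression. The labels give no cultivar, age, treatment or growth condition, so the 2 groups differ by tissue as far as the labels say. RNA was extracted from pooled material, and nothing in the labels tells if replicate libraries were made from different plants. The p-values therefore measure only how far these libraries spread, and that spread may be technical. The table holds miRNAs only, so the tissue labels could not be checked against marker transcripts, and fewer expressing cells cannot be told apart from less RNA per cell. Entries with the same mature sequence were merged, which left 1464 miRNA features in 80 families or in none, and 323 features had enough reads over the 20 libraries to be tested. Of these, 274 were above 0 in at least 1 of the 6 libraries and 127 in all 6. On these collapsed counts, miRNA reads totalled 197952, 538904 and 600487 in the flower bud libraries and 531473, 104497 and 74113 in the mature leaf libraries. With all entries summed they totalled 214909, 586440 and 647012 in flower buds and 584284, 116624 and 82777 in leaves.

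A plant miRNA is cut from a hairpin precursor as a short duplex, and 1 strand is loaded onto an ARGONAUTE protein, which it guides to messenger RNAs of near-perfect complementarity. Many conserved families repress transcription factors. As known mainly from Arabidopsis thaliana, miR156 represses SPL genes and holds the juvenile phase, miR172 represses AP2-like floral regulators, miR166 represses class III HD-ZIP genes of organ polarity, miR319 represses TCP genes of leaf growth, and miR159 represses GAMYB-like genes of anther development. The other strand of the duplex, from the opposite arm of the hairpin, is usually degraded and seen at a lower level.

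The sequences on which the comparison turns are given first, in DNA letters and as listed in the table, each in lower case from 5′ to 3′ with the seed, bases 2 to 8, in capitals. Names are spelled as in the table. The first block holds the main miRNAs that were higher in flower buds.
mtr-miR166a: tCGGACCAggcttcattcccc
mtr-miR166e-5p: gGAATGTTggctggctcgagg
gma-miR319f_1ss17TC: tTGGACTGaaggggcccctt
mtr-miR319a-3p_R+1: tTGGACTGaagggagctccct
ath-miR319c_L+1R-1: tTTGGACTgaagggagctcct
ath-miR170-5p: tATTGGCCtggttcactcaga
gma-miR171k-3p: tTGAGCCGcgccaatatcact
ath-miR394a: tTGGCATTctgtccacctcc
gma-miR4414a-3p_L+1_1ss10TA: aTCCAACGaagcgggagctgc

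The second block holds the main miRNAs that were lower in flower buds, with mtr-miR156e, which did not pass the test, beside its relatives.
mtr-miR156b-5p: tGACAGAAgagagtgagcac
ath-miR156a-5p_L+1: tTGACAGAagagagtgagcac
mtr-miR156e: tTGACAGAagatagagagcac
ath-miR172a: aGAATCTTgatgatgctgcat
aly-miR172b-5p_1ss7CG: gCAGCAGCatcaagattcaca
ath-miR167d_1ss22GA: tGAAGCTGccagcatgatctga
mtr-miR159a: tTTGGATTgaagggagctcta
mtr-miR396a-5p: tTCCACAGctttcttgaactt
mtr-miR5232_L+1R-1_1ss21AG: aTACATGTcgctctcacctgg

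Flower buds and mature leaves differed in many miRNAs of both high and low abundance. Of the 323 features tested, 94 (29.1%) were called, 44 (13.6%) higher and 50 (15.5%) lower in flower buds, where a call asked for a Benjamini-Hochberg adjusted p under 0.05 in edgeR's quasi-likelihood test and a log2 fold change of size 1 or more. The flower bud and leaf values did not overlap for 134 features (41.5%). Spearman correlations of log2 CPM (the usual per-library count scale, here on TMM-adjusted library sizes) ran from 0.911 to 0.957 among flower bud libraries, from 0.846 to 0.923 among leaf libraries and from 0.729 to 0.757 between the tissues, as a description over the tested features. Listed at 0 in all 3 leaf libraries were 19 of the 44 features called higher, and 9 of the 50 called lower were at 0 in all 3 flower bud libraries. A 0 in the table stands for fewer than about 5 reads, and 5 reads were worth a mean of 15.7 CPM in flower buds and 42.2 CPM in leaves. For such features the fold is a bound against 5 reads per library, and 14 of the 19 higher ones had a bound under 2.

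Mature leaves replicate 1 stood apart from the other leaf libraries. It was the deepest of the 3, had the lowest TMM factor of the 6 libraries (0.508), and its levels of the 10 most abundant families lay a median of 1.23 above the mean of leaf libraries 2 and 3 on the log2 scale. The comparison was therefore repeated without it in 2 ways. With the libraries still scaled against flower buds replicate 1, as with all 20 libraries, 75 of 312 features (24%) were called, 41 higher (13.1%) and 34 lower (10.9%). With the TMM reference picked anew, 93 (29.8%) were called, 66 higher (21.2%) and 27 lower (8.65%). Both fits kept 30 of the 44 higher and 27 of the 50 lower calls. The balance of higher and lower calls thus moved with the scaling. The median log2 difference over the 127 features above 0 in all 6 libraries was -0.06 with all libraries, 0.22 and 0.72 in these 2 fits, 0.15 with the authors' factors and 0.70 when ties were rounded to even, which gave 85 higher and 33 lower calls. Leaving out flower buds replicate 3 gave 68 higher and 30 lower calls. In every alternative that tested them, 21 of the higher and 23 of the lower calls were made again, and 0 were called in the opposite direction in any.

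**Figure D1:**
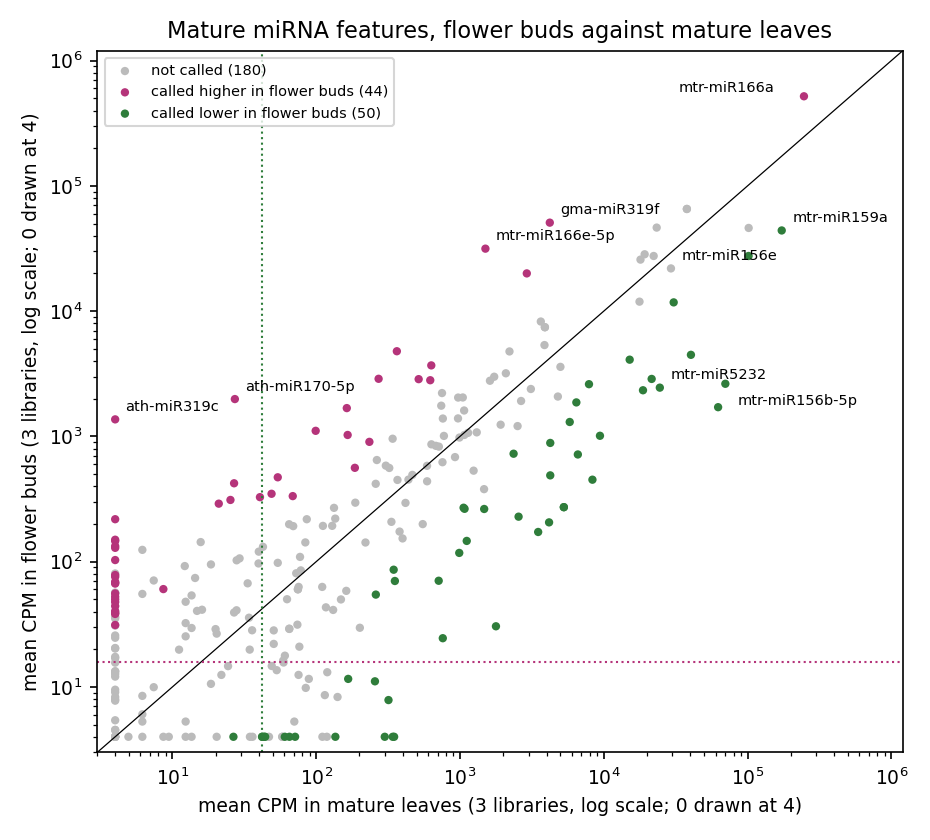
Mean CPM of each tested feature in mature leaves (x axis) and flower buds (y axis), both on log scales with 0 drawn at 4, for the 274 features above 0 in any of the 6 libraries. Coloured points are the 44 features called higher and the 50 called lower in flower buds, the diagonal marks equal means, the dotted lines mark 5 reads per library, and the points on the left edge are features at 0 in every leaf library.

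The scatter of mean levels shows that called features ran from the most abundant miRNA, mtr-miR166a, down to features near the floor of 5 reads. Among the features called higher 59.1% were 21 nt long, against 44% of those called lower and 46.4% of all tested. Of 208 features with a family 35.6% were called, and of 115 without a family 17.4%, but 42 of the latter were at 0 in all 6 libraries and could not be called, and the difference was not tested. Summed by family, 26 of 54 families (48.1%) were called, 11 higher (20.4%) and 15 lower (27.8%) in flower buds, and the values did not overlap for 32 (59.3%). Without leaf replicate 1, 19 families (35.2%) were called on the same reference, 9 higher (16.7%) and 10 lower (18.5%). With the reference picked anew, 25 (47.2%) were called, 17 higher (32.1%) and 8 lower (15.1%). Families called in every alternative were miR160, miR171, miR319, miR394, miR4414, miR7539 and miR8176 on the higher side and miR156, miR167, miR172, miR4995, miR5232, miR5368, miR5559 and miR6173 on the lower side.

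**Figure D2:**
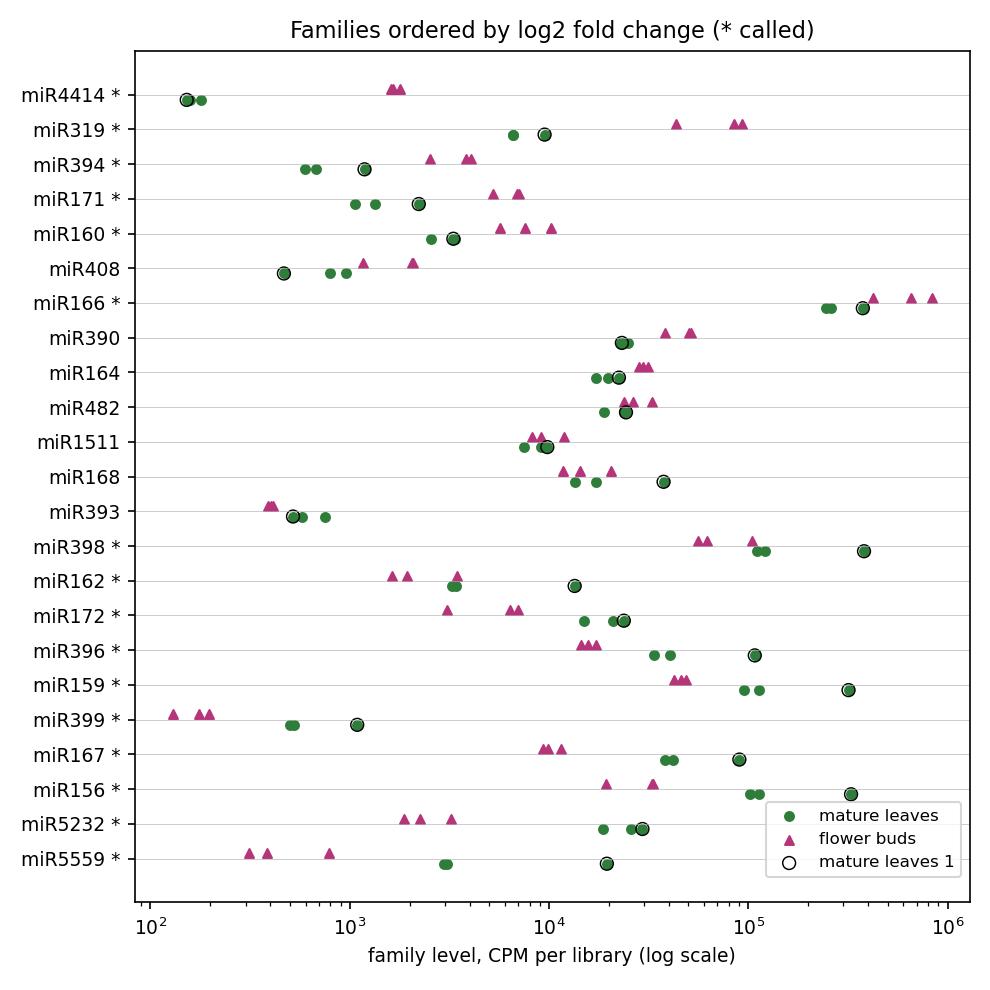
CPM of selected families per library (x axis, log scale), ordered by log2 fold change, with triangles for the 3 flower bud libraries, circles for the 3 mature leaf libraries and a ring around mature leaves replicate 1. Stars mark called families: miR4414, miR319, miR394, miR171, miR160 and miR166 lie to the right in flower buds, and miR5559, miR5232, miR156 and miR167 lie to the left by the widest margins.

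The plot of family levels also shows where leaf replicate 1 lay apart on the CPM scale, on which its low TMM factor raises all its levels. For miR398, miR162, miR396, miR159, miR156, miR167 and miR5559 it was the highest of the leaf libraries by a wide gap, while for miR4414, miR319, miR5232 and miR172 it lay closer to the others. As shares of reads the picture differed. miR156 held 16.65% in leaf replicate 1 against 11.45% and 11.34% in leaf replicates 2 and 3. miR172 (1.205% against 2.117% and 1.652%) and miR5232 (1.494% against 2.602% and 2.059%) were lowest in leaf replicate 1.

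Among the developmental regulators, 4 of 8 tested families were higher in flower buds, 2 were lower and 2 did not pass, with a median log2 difference of 0.98 against 0.19 over all 54 families, of which 20.4% were higher and 27.8% lower. The counts were the same without leaf replicate 1 on the same reference. With the reference picked anew, miR164 and miR169 were also called higher, and miR159 and miR396 were no longer called. miR166, miR171, miR319 and miR394 were the higher ones, miR159 and miR396 the lower ones.

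By mean level miR166 was the most abundant family in both tissues, although miR398 lay slightly above it in leaf replicate 1 (381062 against 375940 CPM). miR166 took a larger part of the flower bud libraries. On the collapsed counts it held 44.9%, 53.8% and 58.0% of miRNA reads in flower buds 1, 2 and 3. In mature leaves 1, 2 and 3 it held 19.1%, 26.5% and 27.2%. These shares do not depend on the TMM factors, and the groups did not overlap. On the CPM scale the family stood at 421995, 657115 and 834028 in flower buds and 375940, 261433 and 246098 in leaves, a log2 difference of 1.11 (SE 0.32, adjusted p = 0.00655). The difference was 1.33 without leaf replicate 1 on the same reference (adjusted p = 0.00165). The fitted difference was smaller for the main miRNA than for its partner strand. mtr-miR166a, the strand that guides repression of HD-ZIP III genes, stood at 362067, 529960 and 666678 CPM in flower buds and 306445, 226967 and 207494 CPM in leaves, a log2 difference of 1.07 (SE 0.29, adjusted p = 0.00859). mtr-miR166e-5p, from the 5′ arm, stood at 13635, 36332 and 44720 CPM in flower buds against 2448, 1038 and 1024 CPM in leaves, a log2 difference of 4.38 (SE 0.57, adjusted p = 1.44e-05). Every flower bud library was above every leaf library for both strands.

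Both strands lie in 1 listed precursor of 106 nt, shown here because it places them on opposite arms, with the 5′ arm product and the 3′ arm product in capitals.
miR166 precursor: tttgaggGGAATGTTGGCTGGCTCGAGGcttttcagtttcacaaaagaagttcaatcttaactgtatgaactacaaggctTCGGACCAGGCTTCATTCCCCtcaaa

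Of 17 miR166 features tested, 5 were higher in flower buds, 0 were lower and 12 did not pass. Over all 323 features 13.6% were higher and 15.5% lower. ath-miR166a-3p_L+2R-2_1 and ath-miR166a-3p_L+2R-2_2, both among those that did not pass, had the same values in every library. A second 5′ arm sequence, aly-miR166g-5p_2ss5TC11TC, which differs from mtr-miR166e-5p by T5C and G10T counted from the 5′ end, stood at 2257, 5649 and 6459 CPM in flower buds and 378, 312 and 402 CPM in leaves, a log2 difference of 3.72 (SE 0.55, adjusted p = 4.22e-05). ath-miR166a-3p_2ss20CT21CT, a 3′ arm variant, stood at 2818, 4331 and 3923 CPM in flower buds and 846, 538 and 512 CPM in leaves (log2 difference 2.54, SE 0.37, adjusted p = 4.22e-05). The second most abundant 3′ arm sequence, ath-miR166a-3p_L+2R-2_2, overlapped between the groups at 30107, 68298 and 97983 against 58642, 26857 and 28118 CPM, and it did not pass (log2 difference 0.79, SE 0.41, adjusted p = 0.149). It did pass without leaf replicate 1 on the same reference (1.25, adjusted p = 0.0376).

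miR319, which represses TCP genes, had among the largest differences. The family stood at 43233, 93045 and 84554 CPM in flower buds and 9506, 6599 and 6584 CPM in leaves, a log2 difference of 3.28 (SE 0.42, adjusted p = 1.35e-06). It held 4.60%, 7.61% and 5.88% of flower bud reads and 0.482%, 0.669% and 0.729% of leaf reads, so the groups were far apart with or without leaf replicate 1. Of 13 members tested, 6 were higher and 7 did not pass, while 13.6% of all 323 features were higher. The leading member on the collapsed levels, gma-miR319f_1ss17TC, stood at 29185, 65947 and 57591 CPM in flower buds and 5044, 3616 and 3987 CPM in leaves (log2 difference 3.59, SE 0.51, adjusted p = 2.9e-05). mtr-miR319a-3p_R+1, which shares its seed TGGACTG, stood at 12380, 23910 and 23790 CPM against 3805, 2690 and 2256 CPM (log2 difference 2.78, SE 0.39, adjusted p = 2.9e-05). The reads of mtr-miR319a-3p_R+1 are split over 3 entries, and with these summed its means, 60080 CPM in flower buds and 8752 CPM in leaves, lay above those of gma-miR319f_1ss17TC (50907 and 4216 CPM). Another member was listed in flower buds only, ath-miR319c_L+1R-1, at 722, 1732 and 1650 CPM in flower buds and at 0 in all 3 leaf libraries, at least 32.4-fold higher (adjusted p = 1.51e-05) and at least 25.3-fold without leaf replicate 1. The opposite arm of its precursor, mtr-miR319c-5p_L-1R+1, was also at 0 in all leaf libraries and at 71.3, 152 and 216 CPM in flower buds, at least 3.46-fold higher (adjusted p = 0.00799).

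Both come from a listed precursor of 104 nt, given because both products were listed at 0 in leaves, with the 2 products in capitals.
miR319c precursor: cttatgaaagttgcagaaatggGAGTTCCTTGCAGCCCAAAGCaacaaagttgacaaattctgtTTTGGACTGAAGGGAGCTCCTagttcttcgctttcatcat

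miR159, close in sequence to miR319, moved the other way. Relative to ath-miR319c_L+1R-1, mtr-miR159a differs by C7T, C20T and T21A, counted from the 5′ end, and the first of these lies in the seed. mtr-miR159a stood at 41156, 47030 and 44109 CPM in flower buds and 313833, 111430 and 93669 CPM in leaves, a log2 difference of -1.97 (SE 0.38, adjusted p = 0.000747). It made up 3.76% ± 0.66 of flower bud reads and 12.5% ± 3.0 of leaf reads (SD, n = 3 each), and the groups did not overlap. Without leaf replicate 1 the difference was -1.22 on the same reference (adjusted p = 0.0037) and -0.63 with the reference picked anew, which no longer passed (adjusted p = 0.0628). Of 10 miR159 members tested and above 0 in at least 1 of the 6 libraries, 3 were lower, all with the seed TTGGATT, and 7 did not pass. Over all 323 features 15.5% were lower. The 5′ arm sequence cas-miR159b-5p_2ss2GT8AT stood at 765, 1213 and 1226 CPM against 1936, 727 and 756 CPM and overlapped between the groups.

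miR396, which represses GRF genes of cell proliferation in Arabidopsis, was lower in flower buds. The family stood at 17280, 15651 and 14399 CPM in flower buds and 107856, 40394 and 33483 CPM in leaves, a log2 difference of -1.94 (SE 0.41, adjusted p = 0.000315). The groups did not overlap, and the difference was -1.23 without leaf replicate 1 on the same reference (adjusted p = 0.00614) and -0.66 with the reference picked anew (adjusted p = 0.0619). Of 7 members tested, 4 were lower, while 15.5% of all 323 features were lower. mtr-miR396a-5p, the strand that targets GRF genes, stood at 2457, 2302 and 2251 CPM in flower buds and 38061, 10205 and 7999 CPM in leaves, a log2 difference of -3.01 (SE 0.54, adjusted p = 0.000359). Without leaf replicate 1 its difference was smaller but still called, -1.96 on the same reference and -1.40 with the reference picked anew (adjusted p = 0.0023 and 0.0114). The more abundant mtr-miR396a-3p differed less, at 13145, 11690 and 10430 against 49363, 22911 and 19692 CPM (log2 difference -1.38, SE 0.39, adjusted p = 0.0128), and it did not pass in either fit without leaf replicate 1 (adjusted p = 0.0913 and 0.56).

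miR171, which represses HAM-type GRAS genes of meristem maintenance, was higher in flower buds. The family stood at 5247, 6871 and 7039 CPM in flower buds and 2222, 1340 and 1061 CPM in leaves, a log2 difference of 2.05 (SE 0.41, adjusted p = 0.000229). Of 9 members tested and above 0 in at least 1 of the 6 libraries, 5 were higher, while 13.6% of all 323 features were higher. ath-miR170-5p, from the 5′ arm, stood at 1088, 2290 and 2584 CPM in flower buds, at 81.6 CPM in leaf library 1 and at 0 in leaf libraries 2 and 3, with a fitted log2 difference of 5.82 (SE 0.96, adjusted p = 0.000154). gma-miR171k-3p, the 3′ arm strand with the seed TGAGCCG, stood at 794, 1088 and 1200 CPM against 152, 198 and 146 CPM (log2 difference 2.63, SE 0.45, adjusted p = 0.000177). The most abundant member on the collapsed levels, mtr-MIR171b-p3_1ss20TC, had a smaller difference that did not pass, at 1972, 2125 and 2043 against 1561, 859 and 719 CPM (log2 difference 0.96, SE 0.44, adjusted p = 0.101). It passed without leaf replicate 1 on the same reference (1.37, adjusted p = 0.0418). ath-miR170-5p stands in 2 entries, and with these summed its flower bud mean of 3975 CPM lay above that of mtr-MIR171b-p3_1ss20TC (2047 CPM).

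**Figure D3:**
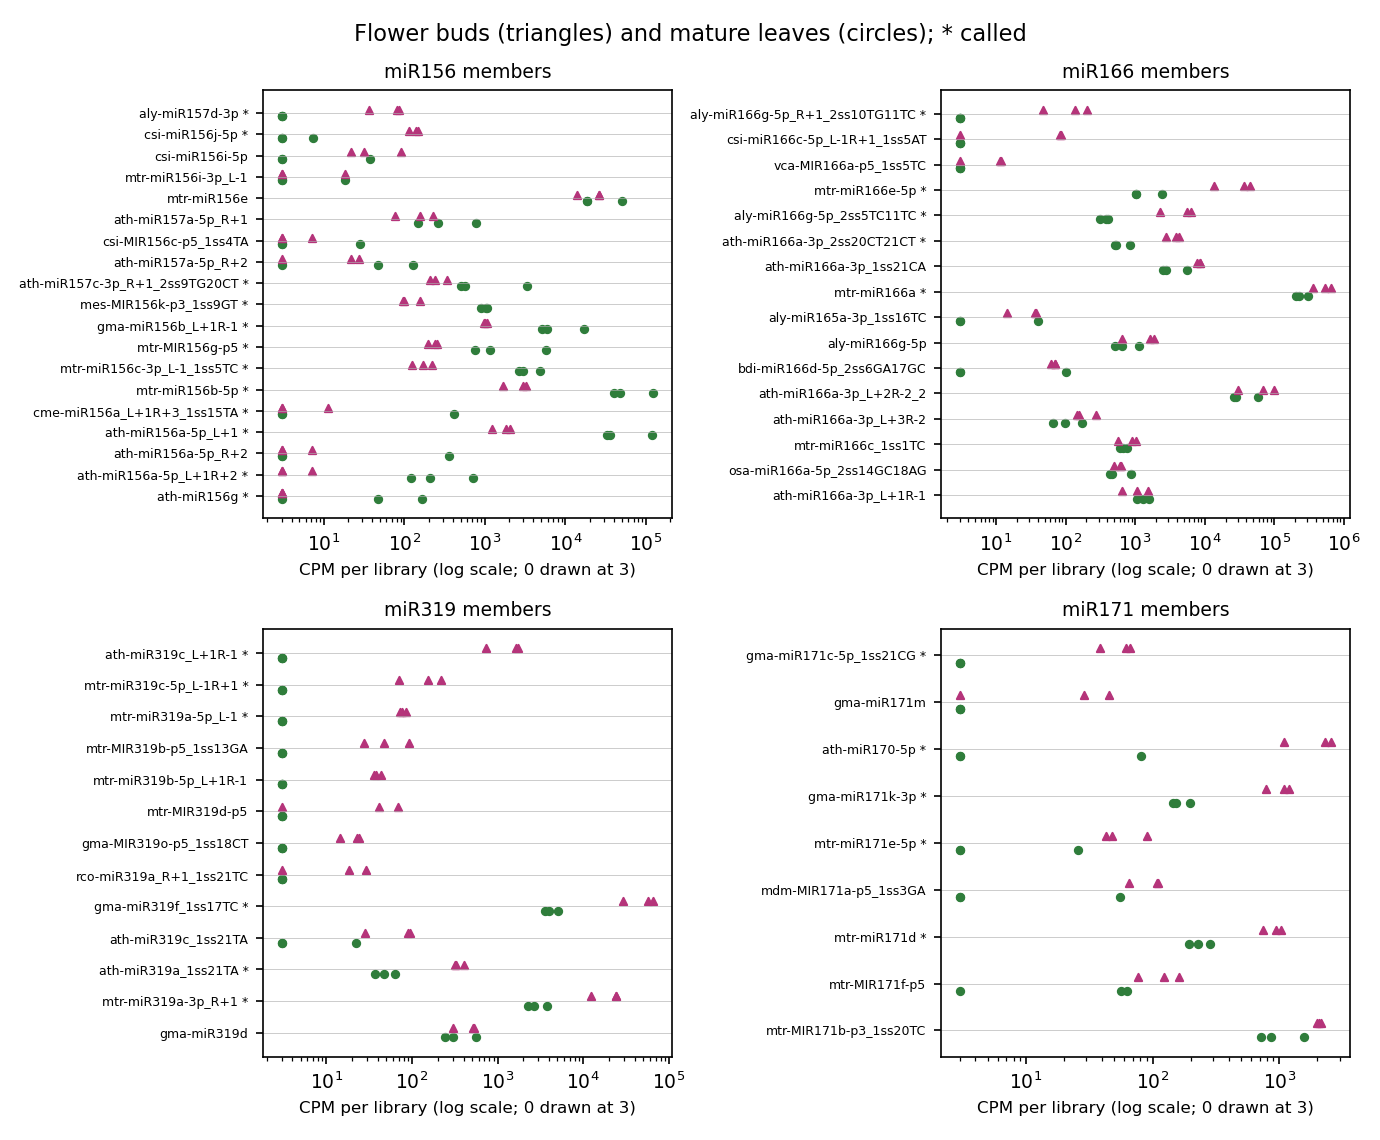
CPM per library (x axis, log scale, 0 drawn at 3) of the tested members of miR156, miR166, miR319 and miR171, with triangles for the 3 flower bud libraries, circles for the 3 mature leaf libraries and a star for each called member. In miR156 the members moved apart, 10 lower and 2 higher, while the called members of miR166, miR319 and miR171 were all higher in flower buds.

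miR394, which represses an F-box gene of stem cell maintenance, stood at 2528, 3819 and 4057 CPM in flower buds and 1187, 680 and 597 CPM in leaves, a log2 difference of 2.07 (SE 0.49, adjusted p = 0.00105). Its leading member ath-miR394a stood at 1958, 3234 and 3408 CPM against 727, 444 and 378 CPM, with no overlap (log2 difference 2.46, SE 0.50, adjusted p = 0.00113). The other 2 of its 3 members did not pass. miR169, which represses NF-YA genes, did not pass as a family (log2 difference 0.85, SE 0.62, adjusted p = 0.287). Without leaf replicate 1 the family passed with the reference picked anew (2.14, adjusted p = 0.00889) but not on the same reference (1.53, adjusted p = 0.0939). Within it, 3 of 6 tested members were called higher, all from the 3′ arm and all at 0 in every leaf library, led by ath-miR169a-3p_L+2_1ss14CT at 128, 107 and 74.2 CPM, at least 2.44-fold higher (adjusted p = 0.00937). Over all 323 features 13.6% were called higher.

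Of the 2 families of the juvenile to adult phase change, both were lower in flower buds, against 27.8% of all 54 families. miR156 stood at 19338, 33255 and 33008 CPM in flower buds and 328109, 112997 and 102460 CPM in leaves, a log2 difference of -2.67 (SE 0.41, adjusted p = 1.07e-05), and -1.92 without leaf replicate 1 on the same reference (adjusted p = 4.04e-05). With the reference picked anew the miR156 difference was -1.30 (adjusted p = 0.00295). The family held 2.36% ± 0.34 of flower bud reads and 13.2% ± 3.0 of leaf reads (SD, n = 3 each). miR172 stood at 3061, 6383 and 6972 CPM in flower buds and 23748, 20881 and 14925 CPM in leaves, a log2 difference of -1.86 (SE 0.41, adjusted p = 0.000481). Without leaf replicate 1 the miR172 difference was -1.71 on the same reference and -1.10 with the reference picked anew (adjusted p = 0.00222 and 0.0337). In both families every leaf library was above every flower bud library.

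The members of miR156 did not move as a block. Of 19 tested and above 0 in at least 1 of the 6 libraries, 10 were lower, 2 were higher and 7 did not pass. Over all 323 features 15.5% were lower and 13.6% higher. ath-miR156a-5p_L+1 stood at 1221, 2068 and 1847 CPM in flower buds and 118720, 35580 and 33068 CPM in leaves, a log2 difference of -5.19 (SE 0.50, adjusted p = 9.44e-07), the smallest adjusted p of all 323 features. mtr-miR156b-5p, which is that sequence without its first base, stood at 1692, 3200 and 3006 CPM against 123397, 46823 and 40153 CPM (log2 difference -4.73, SE 0.49, adjusted p = 1.54e-06). Both differences were smaller without leaf replicate 1, though still called. For ath-miR156a-5p_L+1 they were -4.33 on the same reference and -3.71 with the reference picked anew, and for mtr-miR156b-5p -4.05 and -3.43. mtr-miR156e shares the seed TGACAGA with ath-miR156a-5p_L+1 and differs from it by G12T and T15A, counted from the 5′ end. It stood at 14015, 25930 and 25895 CPM in flower buds and 50898, 18720 and 18436 CPM in leaves, so that the groups overlapped and the test was not passed (log2 difference -0.42, SE 0.37, adjusted p = 0.444). Without leaf replicate 1 its difference turned to 0.24 on the same reference and 0.86 with the reference picked anew, neither of which passed (adjusted p = 0.653 and 0.0707). On the collapsed levels mtr-miR156e made up 76.9% of the family in flower buds and 16.2% in leaves, while ath-miR156a-5p_L+1 made up 6% and 34.5%. gma-miR156b_L+1R-1, which has the T15A change alone, stood at 1050, 973 and 1013 against 17147, 5919 and 5182 CPM, and its log2 difference of -3.22 lay between theirs (SE 0.48, adjusted p = 4.22e-05).

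The 3′ arm of miR156 also had members called lower. mtr-miR156c-3p_L-1_1ss5TC stood at 223, 170 and 125 CPM in flower buds and 4866, 2634 and 3000 CPM in leaves (log2 difference -4.35, SE 0.58, adjusted p = 1.51e-05). The 2 members called higher were of low abundance. csi-miR156j-5p stood at 138, 116 and 146 CPM against 7.42, 0 and 0 CPM (log2 difference 4.93, SE 1.02, adjusted p = 0.00129), and aly-miR157d-3p was at 0 in all leaf libraries, at least 1.60-fold higher (adjusted p = 0.0144). The lower call of cme-miR156a_L+1R+3_1ss15TA, singled out after its values were seen, rested on leaf replicate 1, at 408 CPM there and at 0 in leaf libraries 2 and 3. In miR172, both arms were lower, and 2 of 6 tested members were called lower, the leading member of each arm (15.5% over all 323 features). The 4 others did not pass and had positive fitted differences, from 0.72 to 2.28. ath-miR172a stood at 1963, 4848 and 5489 CPM in flower buds and 17970, 16360 and 11132 CPM in leaves (log2 difference -1.89, SE 0.47, adjusted p = 0.00524), and without leaf replicate 1 it passed on the same reference (-1.75, adjusted p = 0.0162) but not with the reference picked anew (-1.13, adjusted p = 0.0894). Its 5′ arm relative aly-miR172b-5p_1ss7CG stood at 580, 420 and 467 CPM against 5226, 3955 and 3560 CPM (log2 difference -3.12, SE 0.44, adjusted p = 8.38e-05).

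Of 5 families of auxin signalling and trans-acting siRNAs, miR160 was higher, miR167 was lower and 3 did not pass, with a median log2 difference of 0.58. Over all 54 families 20.4% were higher and 27.8% lower, with a median of 0.19, so the counts of this list lay near those shares. Both miR160 and miR167 repress AUXIN RESPONSE FACTOR genes, of different clades. miR160 stood at 5708, 7615 and 10212 CPM in flower buds and 3312, 3380 and 2548 CPM in leaves (log2 difference 1.35, SE 0.43, adjusted p = 0.0135). Its leading member mtr-miR160a did not pass (adjusted p = 0.0539), and the groups overlapped, with flower buds 1 at 2652 CPM and leaf library 2 at 2700 CPM. Without leaf replicate 1 mtr-miR160a did not pass on the same reference (adjusted p = 0.126) but passed with the reference picked anew (adjusted p = 0.0118). miR167 stood at 11449, 9887 and 9307 CPM in flower buds and 90239, 41829 and 38202 CPM in leaves, a log2 difference of -2.47 (SE 0.36, adjusted p = 5.37e-06). Without leaf replicate 1 the miR167 difference was -1.97 on the same reference and -1.40 with the reference picked anew (adjusted p = 2.82e-05 and 0.000642). The leading member over the 6 libraries was ath-miR167d_1ss22GA, at 5931, 3803 and 3715 against 63976, 30454 and 26825 CPM (log2 difference -3.17, SE 0.42, adjusted p = 1.51e-05). Its difference without leaf replicate 1 was -2.68 on the same reference and -2.14 with the reference picked anew (adjusted p = 5.86e-05 and 0.000633). ath-miR167a-5p_R+1_1ss21AT, with the same seed GAAGCTG, differed less at 3274, 2397 and 2167 against 11613, 5909 and 6170 CPM (log2 difference -1.60, SE 0.39, adjusted p = 0.00524), and without leaf replicate 1 it did not pass with the reference picked anew (-0.65, adjusted p = 0.182).

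miR390, which triggers trans-acting siRNAs against AUXIN RESPONSE FACTOR genes, stood just under the fold threshold. Its values were 38238, 50239 and 51620 CPM in flower buds and 23222, 24959 and 22911 CPM in leaves, without overlap (log2 difference 0.98, SE 0.33, adjusted p = 0.0164). Without leaf replicate 1 the difference was 0.96 on the same reference (adjusted p = 0.0346). With the reference picked anew it was 1.56 and was called (adjusted p = 0.000452). miR164, which represses CUP-SHAPED COTYLEDON genes of organ boundaries, also did not overlap but did not pass, at 31295, 28141 and 29732 against 22435, 19843 and 17180 CPM (log2 difference 0.58, SE 0.31, adjusted p = 0.124). Without leaf replicate 1 the miR164 family passed with the reference picked anew (1.25, adjusted p = 0.000661) but not on the same reference (0.68, adjusted p = 0.0948). Its main form ath-miR164a did not pass (log2 difference 0.52, SE 0.29, adjusted p = 0.191), while 3 of its minor forms were called higher. Among these, ath-miR164a_1ss21AT, which carries A21T counted from the 5′ end, stood at 318, 329 and 335 CPM against 26.0, 47.2 and 48.8 CPM (log2 difference 3.07, SE 0.72, adjusted p = 0.0034). miR393, which represses auxin receptor genes, stood at 390, 413 and 405 CPM against 519, 755 and 573 CPM and did not pass (log2 difference -0.61, SE 0.57, adjusted p = 0.395). Its 2 tested members pointed in opposite directions, and neither passed. The 3′ arm sequence gma-MIR393c-p3 made up 49.6% of the family in flower buds and 89.5% in leaves (log2 difference -1.46, SE 0.84, adjusted p = 0.201). The 5′ arm sequence ath-miR393a-5p_1ss22CT had a positive log2 difference of 1.53 (SE 0.71, adjusted p = 0.108). The family value is therefore not read as a change in repression of the receptor genes.

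The copper families differed among themselves, with miR398 lower, miR397 higher and miR408 not passing, and neither call held without leaf replicate 1 on the same reference. miR398, which represses copper superoxide dismutase genes, stood at 104087, 56205 and 62093 CPM in flower buds and 381062, 120766 and 110642 CPM in leaves (log2 difference -1.46, SE 0.60, adjusted p = 0.0456), and -0.64 without leaf replicate 1 (adjusted p = 0.42). Its 3′ arm strand ath-miR398a-3p_L+1R-1, the one that targets these genes, had clearer values at 30068, 25733 and 26963 against 147846, 85782 and 71489 CPM (log2 difference -1.88, SE 0.52, adjusted p = 0.0106), and without leaf replicate 1 it passed on the same reference (-1.51, adjusted p = 0.0495) but not with the reference picked anew (-0.95, adjusted p = 0.16). The 5′ arm strand mtr-miR398a-5p_L-1R+1_1ss8CA overlapped at 73596, 30164 and 34802 against 232388, 34352 and 38872 CPM. miR397, which represses laccase genes, was at 23.8, 65.8 and 43.1 CPM in flower buds and at 0 in all leaf libraries, at least 1.05-fold higher (adjusted p = 0.0164). Without leaf replicate 1 it did not pass on the same reference (adjusted p = 0.0902) but passed with the reference picked anew (adjusted p = 0.027). Its bound without that library was 0.82-fold, which gives no excess in flower buds. miR408, which represses plantacyanin genes, stood at 1169, 2073 and 2065 CPM against 467, 793 and 963 CPM (log2 difference 1.26, SE 0.56, adjusted p = 0.0646). Without leaf replicate 1 it passed with the reference picked anew (1.64, adjusted p = 0.0233) but not on the same reference (1.01, adjusted p = 0.202).

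For phosphate and sulfate, miR399 was lower and miR395 did not pass. miR399, which represses a ubiquitin-conjugating enzyme gene of phosphate uptake, stood at 176, 197 and 129 CPM in flower buds and 1090, 500 and 524 CPM in leaves (log2 difference -2.08, SE 0.72, adjusted p = 0.0195), and no longer passed in either fit without leaf replicate 1 (adjusted p = 0.0939 and 0.297). miR395, which represses ATP sulfurylase genes, ranged from 74.8 to 352 CPM in flower buds and from 0 to 163 CPM in leaves. Of the families that act on the small RNA machinery itself, miR162, which represses DICER-LIKE, was called lower at 3465, 1624 and 1938 against 13456, 3247 and 3426 CPM (log2 difference -1.52, SE 0.53, adjusted p = 0.0195). Its groups overlapped, and without leaf replicate 1 the difference was -0.51 on the same reference (adjusted p = 0.43) and 0.01 with the reference picked anew (adjusted p = 0.975). The call was also lost without flower buds replicate 2 or 3 (-0.74 and -0.78). miR168, which represses ARGONAUTE, did not pass (log2 difference -0.56, SE 0.42, adjusted p = 0.302), and miR403 was not tested.

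Of the families that trigger phased siRNAs, miR482 and miR5213 did not pass, and miR2118 and miR2275 were not tested as families. A single miR2118 feature, osa-MIR2118e-p3_1ss13TA, was called lower, at 0 in all flower bud libraries and at 14.8, 28.3 and 36.6 CPM in leaves, at least 1.69-fold (adjusted p = 0.0208), but not without flower buds replicate 2 or 3 (adjusted p = 0.0646 and 0.0697). miR482, which targets disease resistance genes, overlapped at 32697, 23812 and 26290 CPM in flower buds and 24349, 18786 and 23801 CPM in leaves. miR5213 did not overlap, at 2281, 1918 and 1930 against 1621, 746 and 549 CPM (log2 difference 1.06, SE 0.49, adjusted p = 0.0775), and passed without leaf replicate 1 on the same reference (1.65, adjusted p = 0.0164). miR858, which represses flavonoid MYB genes, was at 61.8, 43.1 and 52.7 CPM in flower buds and at 0 in all leaf libraries, at least 1.24-fold higher (adjusted p = 0.0207). Without leaf replicate 1 it did not pass on the same reference (adjusted p = 0.0948) but passed with the reference picked anew (adjusted p = 0.0458). Its bound of 0.97-fold without that library gave no excess in flower buds.

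Among 7 tested families named in legumes, miR4414 and miR4415 were higher, miR5232 and miR5559 were lower and 3 did not pass. Their median log2 difference was 0.15, against 0.19 over all 54 families, of which 20.4% were higher and 27.8% lower. miR4414 was even within each tissue, at 1649, 1617 and 1784 CPM in flower buds and 152, 179 and 159 CPM in leaves (log2 difference 3.37, SE 0.44, adjusted p = 1.36e-06). Its only sequence, gma-miR4414a-3p_L+1_1ss10TA, is listed in the same 71 nt precursor as gma-miR319f_1ss17TC, on the opposite arm, and both were higher in flower buds. That precursor is shown with both products in capitals.
miR4414 and miR319f precursor: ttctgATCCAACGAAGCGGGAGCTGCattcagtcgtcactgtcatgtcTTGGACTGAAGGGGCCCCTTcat

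miR5232 had the smallest adjusted p of all 54 families, at 3222, 2265 and 1875 CPM in flower buds and 29449, 25667 and 18607 CPM in leaves (log2 difference -3.32, SE 0.39, adjusted p = 4.06e-07). The leaf libraries lay close together, and without leaf replicate 1 the difference was -3.17 on the same reference (adjusted p = 1.88e-06). miR5559 stood at 789, 313 and 383 CPM in flower buds and 19520, 3087 and 2963 CPM in leaves (log2 difference -4.11, SE 0.85, adjusted p = 0.000315). Leaf replicate 1 was far above the other leaf libraries for it, and without that library the difference was -2.62 on the same reference (adjusted p = 0.0068), smaller but still called. miR4415 was at 0, 31.7 and 45.5 CPM in flower buds and at 0 in all leaf libraries, so the groups overlapped, and it lay below the level at which a fold bound could be given. The call of the miR4415 family (adjusted p = 0.0414) was lost in both fits without leaf replicate 1 (adjusted p = 0.144 and 0.0927) and without leaf replicate 2, leaf replicate 3 or flower buds replicate 3 (adjusted p = 0.0691, 0.0598 and 0.0582), and its only sequence, gma-miR4415a-3p_1ss18AT, was not called as a feature (adjusted p = 0.054). miR1511 overlapped between the tissues at 11924, 9123 and 8234 against 9806, 9091 and 7523 CPM.

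Outside these lists, miR4995, miR6173 and miR5368 were among the families with the largest negative differences, and miR8176 and miR7539 were higher. miR5368 stood at 3579, 3211 and 3763 CPM in flower buds and 24116, 34456 and 38775 CPM in leaves (log2 difference -3.21, SE 0.51, adjusted p = 1.34e-05). miR6173 stood at 23.8, 107 and 172 CPM against 1854, 3474 and 2146 CPM (log2 difference -4.59, SE 0.77, adjusted p = 4.23e-05). miR4995 stood at 0, 27.2 and 88.6 CPM against 1398, 1057 and 1122 CPM (log2 difference -4.86, SE 0.98, adjusted p = 0.000229). In all 3 families every leaf library was far above every flower bud library, and leaf replicate 1 was the lowest leaf library for miR5368 and miR6173. miR5368 sequences ran from 18 to 24 nt, and whether these reads come from miRNA precursors or from other RNAs was not tested. miR8176 was a single sequence of 19 nt, at 722, 1061 and 1542 CPM in flower buds and 14.8, 75.5 and 207 CPM in leaves (log2 difference 3.62, SE 0.73, adjusted p = 0.000229). miR7539 stood at 347, 497 and 616 CPM in flower buds and 22.3, 28.3 and 73.2 CPM in leaves (log2 difference 3.68, SE 0.84, adjusted p = 0.000671).

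Of 115 tested features with no family, 11 were higher and 9 lower in flower buds. The 3 shown were listed in only 1 of the 2 tissues, and their sequences are given because they have no family name to identify them by.
lcum-miR-87385_85-5p: aAAATGGGccggaccgagaaaccc
lcum-miR-44300_256-3p: tCTCATGAatagacttgaac
lcum-miR-50241_211-3p: cCTAGATAcattgatacac

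lcum-miR-87385_85-5p stood at 114, 175 and 160 CPM in flower buds and at 0 in all leaf libraries, at least 3.54-fold higher (adjusted p = 0.0104). lcum-miR-44300_256-3p was at 0 in all flower bud libraries and at 567, 321 and 134 CPM in leaves, at least 21.7-fold lower in flower buds (adjusted p = 0.00977), or at least 14.5-fold without leaf replicate 1. lcum-miR-50241_211-3p was likewise at 0 in flower buds and at 163, 359 and 378 CPM in leaves, at least 19.1-fold lower (adjusted p = 0.00416), or 23.5-fold without leaf replicate 1. Neither of these last sequences lies unchanged in its listed precursor. lcum-miR-82688_93-3p and lcum-miR-63591_144-5p were also at 0 in all flower bud libraries, at least 4.15-fold and 2.69-fold lower. Higher in flower buds and present in both tissues was lcum-miR-1238_15730-3p, at 808, 2959 and 4663 CPM against 860, 529 and 476 CPM, so that 1 flower bud library lay within the leaf range (log2 difference 2.17, SE 0.58, adjusted p = 0.00846). Over all 1464 features, tested or not, 30 were above 0 in every flower bud library and at 0 in every leaf library, and 5 showed the reverse. The lower floor of the flower bud libraries moves in the same direction as that imbalance, and its part in it was not tested.

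The balance of the precursor arms was measured in 16 families that had at least 5 reads from each arm in all 6 libraries. The log2 ratio of 5′ to 3′ arm reads did not overlap between the tissues in 8 of them, and each of these had an exact two-sided permutation p of 0.1, the smallest that 3 against 3 libraries allow (0.2 after Benjamini-Hochberg adjustment over the 16). In miR166 the ratio was -4.56, -3.78 and -3.85 in flower buds and -6.24, -6.72 and -6.68 in leaves, a difference of 2.48 toward the 5′ arm in flower buds, and 2.63 without leaf replicate 1. In miR162 it was -0.16, -0.78 and -0.52 against -3.40, -1.89 and -2.68, a difference of 2.17. miR159 also lay toward the 5′ arm in flower buds, by 1.72. miR167 and miR396 lay toward the 3′ arm in flower buds, by -1.18 and -1.09 on the same scale. The arm is the one of the listed precursor, and for miR319 and miR394 forms of the guide strand are listed on both arms, so their ratios are not read as strand balance.

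**Figure D4:**
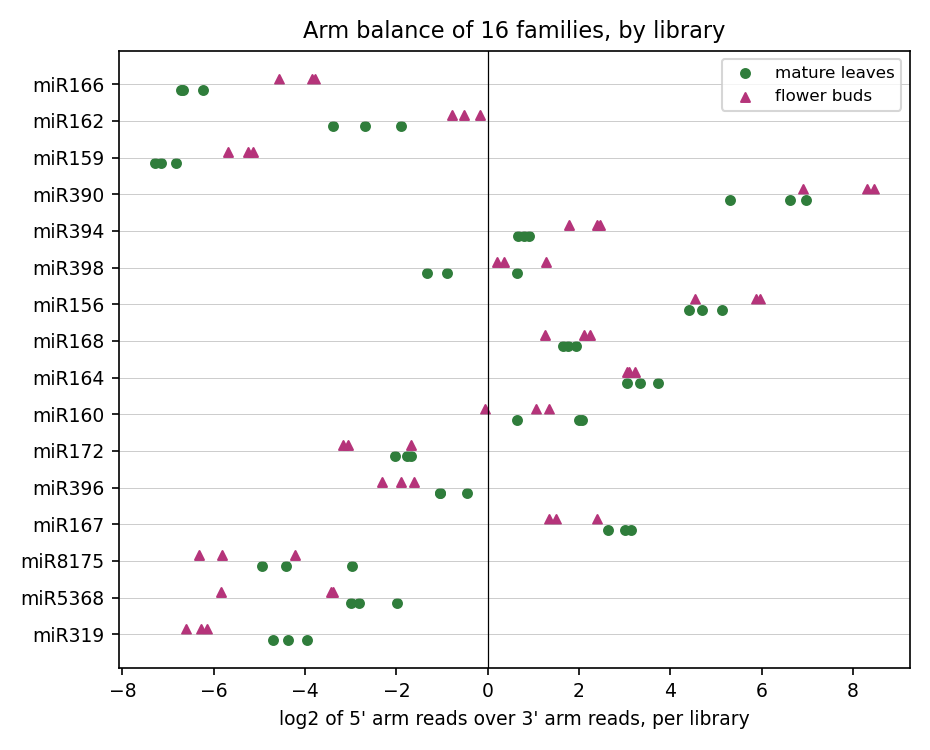
Log2 ratio of 5′ arm to 3′ arm reads per library (x axis) for the 16 families with at least 5 reads from each arm in all 6 libraries, with triangles for flower buds and circles for mature leaves, ordered by the difference. miR166, miR162, miR159 and miR394 lie further right in flower buds without overlap, and miR167, miR396, miR5368 and miR319 further left.

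The arm plot sets the miR166 shift beside its members, since mtr-miR166e-5p and mtr-miR166a lead the 2 arms. The 5′ arm of miR166 stood at 38583 ± 19159 CPM in flower buds and 3252 ± 1440 CPM in leaves, and the 3′ arm at 599129 ± 187925 and 291238 ± 69517 CPM (SD, n = 3 each). In miR162 the change lay in the 3′ arm, at 1332 ± 434 CPM in flower buds and 5936 ± 5504 CPM in leaves, where leaf replicate 1 at 12288 CPM set the spread, while the 5′ arm stood at 1010 ± 551 and 774 ± 360 CPM.

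By length, miRNAs of 21 nt dominated both tissues. They made up 75.8%, 82.8% and 85.1% of reads in flower buds and 72.7%, 77.1% and 75.2% in leaves, which overlapped (exact two-sided permutation p = 0.2). The 24 nt class was small but did not overlap, at 0.200%, 0.178% and 0.180% in flower buds and 0.281%, 0.431% and 0.516% in leaves (exact two-sided permutation p = 0.1, 0.4 after adjustment over 8 length classes). Reads of 22 nt overlapped at 9.04% ± 4.97 and 13.8% ± 4.3, with flower buds replicate 1 at 14.8% above the other flower bud libraries. Sequences that begin with T held 80.1% ± 4.6 of flower bud reads and 75.8% ± 0.8 of leaf reads (SD, n = 3 each).

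**Figure D5:**
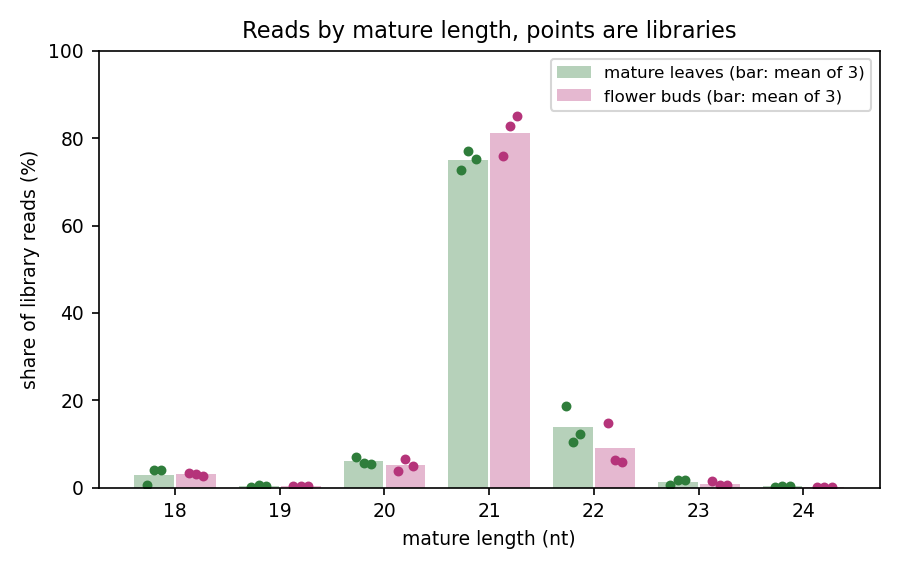
Share of miRNA reads by mature length (x axis, nt; y axis, percent of the reads of a library), with bars for the mean of the 3 flower bud and 3 mature leaf libraries and points for single libraries. Reads of 21 nt made up 81.2% on average in flower buds and 74.98% in leaves, with overlapping libraries.

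The length plot shows the 25 nt class nowhere, since it held at most 0.00378% of any library and is left off the axis. Flower buds replicate 1 lay apart from the other flower bud libraries in its 21 and 22 nt shares, towards the leaf values.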

How the data were processed

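The labels describe RNA from pooled samples extracted with TRI Reagent and a Spectrum kit, and TruSeq small RNA libraries. Trimming, aligner, miRNA caller and build: not given in the sources used here. No genome was used, so no positions are given. The raw columns are expected counts as the authors deposited them: reads were split equally among entries of the same mature sequence (for sequences standing in 2 entries, 47.4% of values were whole and 99.4% when doubled, to a tolerance of 0.01). The normalized columns are a signal that the authors deposited as raw values times 1 factor per library, and they served only as an alternative scaling. The content of 7 further lines is not reported here.

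The 1642 entries were collapsed to 1464 features, keeping 1 entry per sequence, so the printed level of a sequence with 2 entries (mtr-miR156b-5p, mtr-miR160a, ath-miR394a and ath-miR170-5p among those named) or 3 (mtr-miR319a-3p_R+1) is the share of its reads in 1 entry, and summing the entries was an alternative. Family levels and read shares rest on the same collapsed counts. Counts were rounded, ties up. Features passed edgeR's filterByExpr by tissue (323 kept), were scaled by TMM, and were tested with edgeR's quasi-likelihood F-test in a model of tissue alone fitted to all 20 libraries (R 4.3.3, edgeR 4.0.16, limma 3.58.1). Calls needed an adjusted p (Benjamini-Hochberg, over the whole table) under 0.05 and a log2 fold change of size 1 or more. Rounding ties up made flower buds 1 the TMM reference and rounding them to even made it stem 3, and the log2 mean factor of flower buds minus leaves was 0.03 and -0.70 in turn; ties up, as used in earlier work on this table, was kept after both had been seen. A family is the number in the name (miR170 joined miR171, miR165 joined miR166 and miR157 joined miR156), and each distinct set of counts entered a family sum once. Where a tissue was at 0 in every library, the fold is a bound against 5 reads per library, which covers counting error only. Length shares and arm ratios were compared by exact permutation (scipy 1.17.1, Python 3.11.15, numpy 2.4.6, pandas 2.3.3, matplotlib 3.10.9).

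DESeq2 1.42.0, its size factors, library size alone, the authors' factors, no filter, the 6 libraries alone, a replicate block and leaving out each library were the alternatives. Named were the 8 most abundant features, the called features of largest and smallest log2 fold change without overlap (8 each with a family, 4 each without), the 4 most abundant listed in 1 tissue only in each direction, every listed family and its most abundant member. Other members are named to show how a family is made up. The members and lists were chosen with earlier results of these data known.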

Additional observations from a re-analysis of the deposited data

How the results depend on the processing

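Over all alternatives the count of features called ran from 72, with no filter on low counts, to 118, with ties rounded to even, against 94, and that of families from 19 to 29 against 26. Leaving out 1 library gave 75 to 100 features and 19 to 27 families. The split moved more than the counts: 44 higher and 50 lower features became 66 and 51 with DESeq2's size factors, 58 and 45 with the authors' factors, 85 and 33 with ties rounded to even, and 62 and 35 without flower buds 2. For families, 11 and 15 became 19 and 10 with ties rounded to even. The alternatives that kept the TMM reference without leaf library 1, or rounded to even, were chosen after seeing the data. The miR162 family ran from -1.86 to 0.01 when 1 library was left out and reversed without leaf library 1 (0.01, adjusted p = 0.975), and the 19 nt difference in share went to -0.584 percentage points with repeated counts kept, against -0.112. For named miRNAs, 1221 values kept direction and side of the threshold, 115 lost the call, 127 gained it and 18 changed sign. Besides miR162, all of these were uncalled negative differences that turned positive. Without leaf library 1 (same reference, then reference picked anew) mtr-miR398a-5p_L-1R+1_1ss8CA went to 0.33 and 0.85, ath-miR168a-5p to 0.02 and 0.56, the miR168 family to 0.01 and 0.54, and mtr-miR169k_R+1_1ss5CT to 0.02 and 0.65. With ties rounded to even ath-miR168a-5p and the miR168 family went to 0.17, mtr-miR169k_R+1_1ss5CT to 0.23 and the miR393 family to 0.14. Leaving out flower buds 1, 2 or 3 gave 0.01 for mtr-miR169k_R+1_1ss5CT (library 1), and 0.12 and 0.07 for ath-miR168a-5p and 0.17 and 0.11 for the miR168 family (libraries 2 and 3). The lowest leave-one-out values of these were -1.56 for mtr-miR398a-5p_L-1R+1_1ss8CA, -0.85 for ath-miR168a-5p, -0.83 for the miR168 family and -0.93 for mtr-miR169k_R+1_1ss5CT. The same replicate numbers did not pair the libraries (correlations of deviations -0.122, -0.0612 and -0.00668), and a replicate block gave 39 higher and 49 lower features (88) and 8 and 15 families (23). Depth limits low features in leaves most, where 5 reads were worth 47.2 and 61.0 CPM in leaf libraries 2 and 3.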

Other observations

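The families that separated flower buds from leaves did not all peak in these tissues. miR319 had its highest mean in stem (189449 CPM), above flower buds (73610), flowers (68485) and shoots (46810), with leaves (7563) lowest and roots at 10252. miR4414 was also highest in stem, at 11768 CPM in stem, 2416 in flowers, 1683 in flower buds and 1463 in shoots, with leaves at 163. miR5232 was highest in leaves (24575 CPM), and stem came next at 7016. miR156 stood at 181189 CPM in leaves and 122177 in shoots, but at 107729 in leaves without leaf library 1, below shoots, and flower buds (28533) lay near young pods (31474) and above flowers (13541). miR171 was highest in roots (9712 CPM), above flower buds (6386) and stem (6065). miR166 was highest in flower buds (637712 CPM), above young pods (304683), leaves (294490) and shoots (287081), and without leaf library 1 leaves stood at 253765, below shoots. ath-miR319c_L+1R-1, at 0 in all leaf libraries, had its highest mean in young pods (1861 CPM), then flower buds (1368) and flowers (720). These orders were not tested between tissues.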
